A study of Mus musculus with 14 samples.

Results

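The 84 genes described here encode the proteins of the cytosolic ribosome. They were taken by name from 21631 protein-coding genes on the autosomes and the X chromosome of the mouse: every symbol made of Rpl or Rps and a number, with the usual suffixes, and Rplp0, Rplp1, Rplp2 and Rpsa. Of the 84, 47 encode proteins of the large subunit, 31 proteins of the small subunit, and 6 are related copies of such genes (Rpl3l, Rpl7l1, Rpl10l, Rpl22l1, Rpl39l and Rps27l). Rpl32l is counted with the large subunit by its name. No measured value was used to choose them.

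Chromatin of Hoxb8-FL cells was immunoprecipitated for 13 transcription factors and sequenced (ChIP-seq). Hoxb8-FL is a line of mouse blood progenitors labelled as LMPP-like, that is, resembling lymphoid-primed multipotent progenitors. The cells were held in culture with estradiol and FLT3, received no other treatment, and were fixed in formaldehyde at 0.4% or 1%, with no statement of which factor had which. The ETS factors Spi1, Fli1 and Erg, the C/EBP factors Cebpa and Cebpb, and Runx1, Lmo2, Tal1, Lyl1, Gata2, Meis1, Gfi1 and Gfi1b had 1 library and 1 peak list each, and an IgG library was not analysed here. With 1 library per factor, all from 1 line, no p-values were computed and the intervals below cover counting error only.

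The cytosolic ribosome is built from ribosomal RNA and one copy each of most of these proteins, so their genes are transcribed at a high and closely matched rate in growing cells. Their promoters are short, rarely hold a TATA box, and often start transcription at a C followed by a run of pyrimidines, the terminal oligopyrimidine tract through which mTOR signalling controls translation of the mRNA. Inherited loss of 1 copy of several of them causes Diamond-Blackfan anaemia, in which red cell production fails, so blood progenitors are a tissue where these genes have been studied closely.

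Peaks came as intervals of 400 bp without height or score, and the lists held from 3217 (Gata2) to 76378 (Spi1) of them, so read depth is unknown and lengths of lists are not amounts of binding. A gene counted as having a factor near it if the midpoint of a peak lay within 1 kb of either end of the gene. Since ribosomal protein genes are short, with a median length of 3179 bp against 17329 bp for all protein-coding genes, each value is set beside 2 backgrounds: all protein-coding genes, and the other genes of like length. Gene density was alike, with a median of 3 other protein-coding genes within 50 kb in both.

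The sequences below show what stood at these genes. RefSeq gives a start and promoter on GRCm38.p6 for 64 of the 84. The first set is the 9 genes that had a Fli1 peak at the start and the letters CCGGAAG, the core that ETS factors such as Fli1 and Erg prefer, with 20 bases on either side lying before the start and outside every annotated gene. Capitals mark CCGGAAG, and each run is printed 5′ to 3′ on the strand that holds those letters.
Rpl15, chr14:18271022-18271068, minus strand: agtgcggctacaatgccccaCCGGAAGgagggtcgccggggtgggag
Rpl27a, chr7:109519006-109519052, minus strand: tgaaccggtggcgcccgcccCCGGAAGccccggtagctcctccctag
Rpl35, chr2:39005232-39005278, plus strand: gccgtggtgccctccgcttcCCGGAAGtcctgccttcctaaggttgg
Rpl41, chr10:128549198-128549244, minus strand: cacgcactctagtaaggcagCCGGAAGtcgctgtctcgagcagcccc
Rps18, chr17:33955714-33955760, minus strand: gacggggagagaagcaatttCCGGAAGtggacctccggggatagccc
Rps21, chr2:180257271-180257317, plus strand: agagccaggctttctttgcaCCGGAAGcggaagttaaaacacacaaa
Rps26, chr10:128626694-128626740, minus strand: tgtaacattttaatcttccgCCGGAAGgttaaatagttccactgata
Rps6, chr4:86857432-86857478, minus strand: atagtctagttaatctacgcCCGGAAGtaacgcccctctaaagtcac
Rpsa, chr9:120127558-120127604, minus strand: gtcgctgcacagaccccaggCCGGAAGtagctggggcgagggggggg

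The second set is the bases before the start of 4 of the genes with the most factors, and of Rpl10l, which had none. Each run covers the 250 bases before the start or the part of them outside every annotated gene, and capitals mark CCGGAAG or the Runx letters TGTGGT on either strand.
Rps9, chr7:3703791-3703953, plus strand: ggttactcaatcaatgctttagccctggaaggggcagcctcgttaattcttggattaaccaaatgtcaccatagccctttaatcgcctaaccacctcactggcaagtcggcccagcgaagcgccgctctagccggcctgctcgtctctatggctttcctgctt
Rpl37, chr15:5116563-5116612, plus strand: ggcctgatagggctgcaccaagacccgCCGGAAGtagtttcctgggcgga
Rpl4, chr9:64173137-64173386, plus strand: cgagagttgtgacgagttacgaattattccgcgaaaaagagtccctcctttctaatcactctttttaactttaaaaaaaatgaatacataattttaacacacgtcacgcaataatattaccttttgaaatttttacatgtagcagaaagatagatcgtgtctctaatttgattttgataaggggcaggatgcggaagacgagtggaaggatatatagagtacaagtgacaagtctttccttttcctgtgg
Rps15, chr10:80292181-80292430, plus strand: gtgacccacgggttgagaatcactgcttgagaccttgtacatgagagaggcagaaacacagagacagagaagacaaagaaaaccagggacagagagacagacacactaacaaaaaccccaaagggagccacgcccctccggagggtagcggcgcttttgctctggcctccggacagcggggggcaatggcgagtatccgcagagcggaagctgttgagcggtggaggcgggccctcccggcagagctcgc
Rpl10l, chr12:66284402-66284651, minus strand: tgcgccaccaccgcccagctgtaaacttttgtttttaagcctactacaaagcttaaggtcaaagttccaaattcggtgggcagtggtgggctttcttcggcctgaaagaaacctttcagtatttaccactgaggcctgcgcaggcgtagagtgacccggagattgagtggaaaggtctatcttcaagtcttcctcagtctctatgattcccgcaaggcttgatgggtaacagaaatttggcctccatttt

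Most ribosomal protein genes carried blood transcription factors at an end of the gene. Of the 84, 74 had a peak of at least 1 factor within 1 kb (88.1%, exact binomial 95% interval 79.2 to 94.1), against 53.5% of all protein-coding genes and 45.2% of those of like length. Other gene groups with shares of like size are given below. The number of factors per gene averaged 3.54 ± 2.31 (SD over the 84) with a median of 3, where all protein-coding genes had a mean of 1.87 and a median of 1 and genes of like length a mean of 1.54. At least 5 factors were present at 29 ribosomal protein genes, or 34.5%, compared with 15.8% of all genes and 13.1% of those of like length. The commonest numbers were 3 factors, at 16 genes, and 6 factors, at 14.

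The ETS factors Spi1 and Fli1 were near the most genes. Spi1 (PU.1), required for myeloid and lymphoid development, was near 63 of the 84 genes (75%, 64.4 to 83.8), with 37.9% of all genes and 32.8% of genes of like length as background. Fli1, an ETS factor of stem cells and megakaryocytes, was near 55 (65.5%, 54.3 to 75.5), with 25.5% of all genes and 21.3% of those of like length. Its close relative Erg was near 31 (36.9%, 26.6 to 48.1), with 13% and 11%. Relative to genes of like length, the share of ribosomal protein genes was 3.35 times as high for Erg, 3.07 times for Fli1 and 2.29 times for Spi1, so among these 3 ETS factors Spi1 led in number and Erg and Fli1 in proportion.

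Cebpa and Cebpb, which drive granulocyte and monocyte differentiation, were near fewer genes than Spi1 and Fli1 and more than Erg. Cebpb was near 39 genes (46.4%, 35.5 to 57.6), with 22.8% of all genes and 19.4% of those of like length as background. Cebpa was near 38 (45.2%, 34.3 to 56.5), with 21.0% and 16.5%. Lmo2, a bridging protein that reaches DNA through partners, was near 28 (33.3%, 23.4 to 44.5), with 20.9% and 17.0%. Runx1, a core regulator of blood stem cells, was near 23 (27.4%, 18.2 to 38.2), with 17.5% and 14.1%. For these 4 factors, as for the ETS factors, the whole interval lay above both backgrounds. For Lmo2 and Runx1 this did not hold in every alternative. Lmo2 was within 1 kb of 29.7% of 64 RefSeq starts (18.9 to 42.4), beside 19.5% of all starts. With the first 50% of the lines of a list, Lmo2 was near 9.52% of the 84 (4.2 to 17.9, beside 6.23% of all genes) and Runx1 near 11.9% (5.86 to 20.8, beside 7.05%).

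The other 6 factors were rare at these genes. Gata2 was near 6 genes, Rpl3, Rpl12 and Rps12 among them (7.14%, 2.67 to 14.9), with 2.42% of all genes and 1.64% of those of like length. Gfi1b was near 5 (5.95%, 1.96 to 13.3), with 6.88% and 4.9%. Gfi1 was near Rpl4, Rpl7 and Rps9 (3.57%, 0.743 to 10.1), with 8.54% and 6.7%, and Lyl1 near Rpl4, Rpl9 and Rps9 (3.57%, with the same interval), with 3.21% and 2.58%. Meis1 was near Rpl8 and Rps9 (2.38%, 0.29 to 8.34), with 3.18% and 2.66%. Tal1, a master regulator of blood formation, was near Rps9 alone (1.19%, 0.0301 to 6.46), with 4.68% and 3.9%. For Gfi1b, Gfi1, Lyl1, Meis1 and Tal1 the intervals took in both backgrounds, so no difference was detectable with 84 genes, while for Gata2 the interval lay above both on a count of 6. The Gata2 interval took in the background at the RefSeq starts (3 of 64, 4.69%, 0.977 to 13.1, beside 2.46%) and with the first 50% of the lines (3 of 84, 3.57%, 0.743 to 10.1, beside 1.65%).

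**Figure D1:**
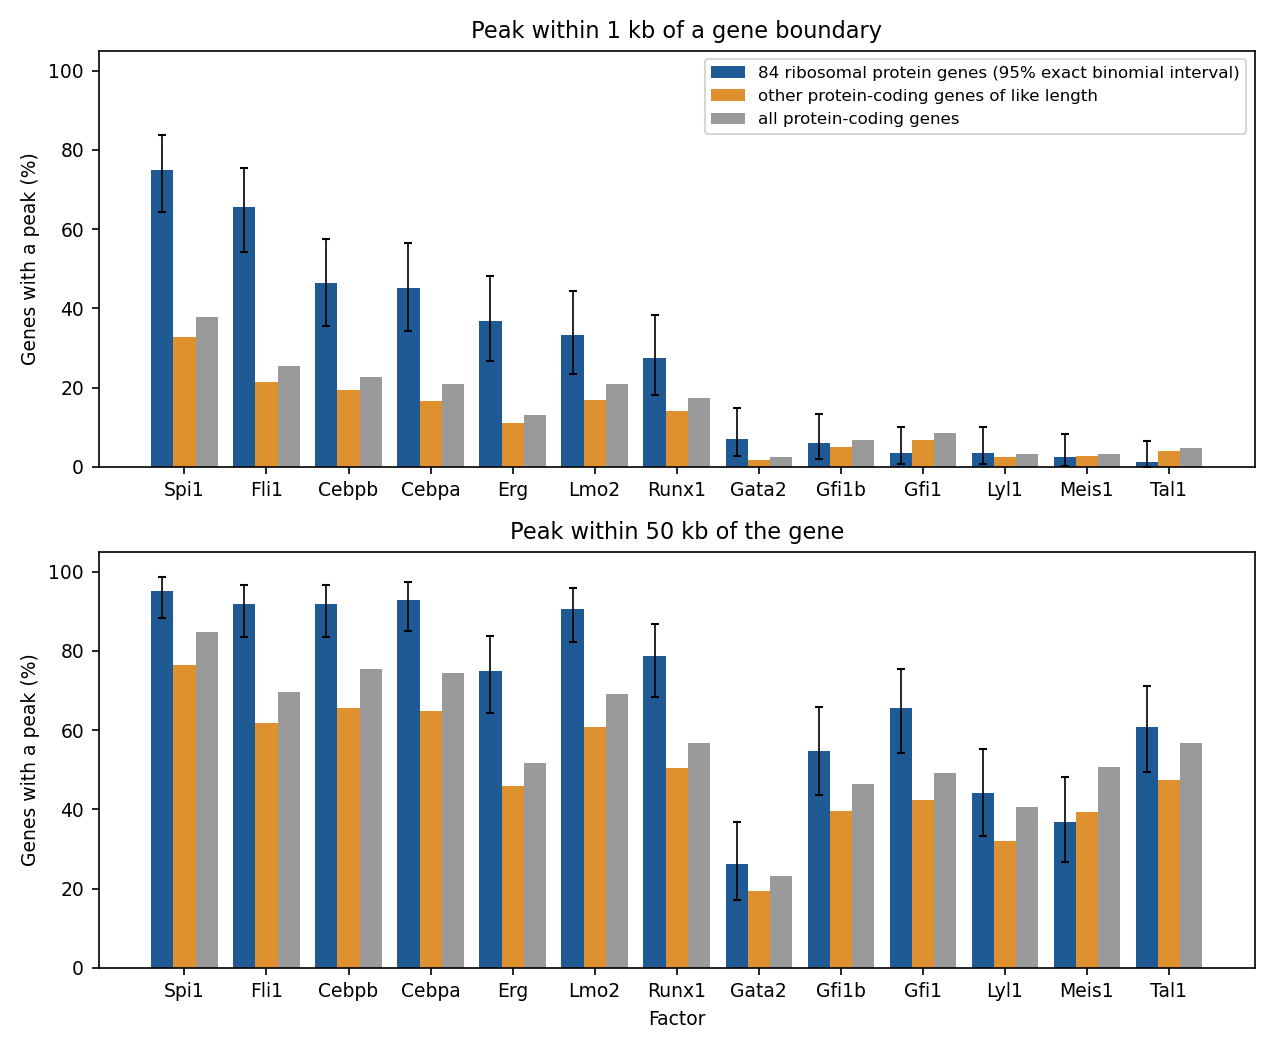
Percentage of genes (vertical axes) with a peak of each factor (horizontal axes) within 1 kb of either end of the gene (upper) and within the gene and 50 kb either side (lower). Bars stand for the 84 ribosomal protein genes, other protein-coding genes of like length and all protein-coding genes, and error bars are 95% exact binomial intervals of counting error. Near the gene, Spi1 (75%) and Fli1 (65.5%) stand highest, and Tal1 (1.19%) is lowest.

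Related factors overlapped to different degrees. Cebpa and Cebpb shared 34 genes, 89.5% of those with Cebpa and 87.2% of those with Cebpb, where over all genes the shares were 81.2% and 74.6%. Of the 31 genes with Erg, 30 also had Fli1 (96.8%, against 96.2% over all genes), Rpl30 being the exception, while 54.5% of the 55 genes with Fli1 had Erg (49.1% over all genes). Gfi1 and Gfi1b shared 1 gene, 33.3% of those with Gfi1 and 20% of those with Gfi1b, where over all genes the shares were 57.2% and 71.0%. Fli1 and Spi1 shared 49 genes, 89.1% of those with Fli1 and 77.8% of those with Spi1, where over all genes the shares were 77.1% and 51.9%. An overlap rises with the shares of the 2 factors themselves. Fli1 and Spi1 were near 65.5% and 75% of the 84 genes and 25.5% and 37.9% of all genes. Cebpa and Cebpb were near 45.2% and 46.4%, and 21.0% and 22.8%. Overlap beyond that given by these shares was not tested. Some 26 genes carried Cebpa, Cebpb, Fli1 and Spi1 together. ETS and C/EBP factors met at 39 genes, 30 had an ETS factor without a C/EBP factor, and 4 (Rpl9, Rpl23a, Rps24 and Rps29) had a C/EBP factor without an ETS factor. The remaining 11 had neither. These combinations of ETS and C/EBP factors were not counted over all genes, so no background stands beside them.

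Peaks that touched were merged into regions, of which 104 had their midpoint within 1 kb of an end of these genes. More than 1 factor was present in 74 of the regions, at least 5 in 28 and at least 10 in 1. Fli1 was in 59 of them. In 30 regions only 1 factor was present, and in 17 of these it was Spi1, which has the longest list. Regions at other genes were not counted in this way, so these numbers have no background.

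Rps9, a small-subunit protein that helps set the accuracy of decoding, had the most factors, 11 of the 13, with 16 peaks within 1 kb. Most of them lay away from the start. A region of 10 factors at chr7:3706913-3707492 (GRCm38) stood past the far end of the gene, with midpoints 215 bp (Tal1) to 395 bp (Cebpa) beyond it. Cebpa, Cebpb, Fli1, Gfi1, Gfi1b, Lmo2, Lyl1, Meis1, Spi1 and Tal1 made up the region, and it held the sole Tal1 peak within 1 kb of a ribosomal protein gene. At the start, Cebpa (-13 bp), Runx1 (-36 bp), Cebpb (-72 bp), Gfi1b (-129 bp), Gfi1 (-132 bp) and Spi1 (-713 bp) had peaks, where negative values are upstream. Fli1 had no peak at this start and Erg none within 50 kb of the gene.

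Rpl4, which lines the tunnel through which the new protein leaves the ribosome, also had separate sets at its 2 ends. Erg (-105 bp), Fli1 (-52 bp) and Runx1 (-558 bp) lay at the start, and Cebpa, Cebpb, Fli1, Gfi1, Lyl1 and Spi1 lay 720 to 976 bp past the far end. Rpl4 has an end of another protein-coding gene within 1 kb, so peaks beside it can be counted with either gene. The printed bases before Rpl4 were AT-rich, with a GC content of 35.6%, and held no CCGGAAG.

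Rpl37 and Rps15 carried their factors at the start. At Rpl37, a large-subunit protein, 8 factors (Cebpa, Cebpb, Erg, Fli1, Gfi1b, Lmo2, Runx1 and Spi1) shared the region chr15:5116207-5116838 over the start. Their midpoints ran from -207 bp (Runx1) to 25 bp (Spi1), and the CCGGAAG printed above was centred at -20 bp. At Rps15, a small-subunit protein, 7 factors (Cebpa, Cebpb, Erg, Fli1, Lmo2, Runx1 and Spi1) shared chr10:80292166-80292720, with midpoints from -66 bp (Lmo2) to 89 bp (Cebpb). Rpl3, which sits beside the peptidyl transferase centre, had 7 factors and 9 peaks, with Gata2 and Gfi1b among them and neither Erg nor Runx1, and its start was not analysed here. Rpl18, another large-subunit protein, had 7 factors at the ends of its annotated interval and 8 at its RefSeq start, which lies 2604 bp inside that interval.

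Of the next genes by number, Rps18, of the head of the small subunit, had 6 factors and 11 peaks, from all 6 factors at the start and from 5 at the far end. Rpl41, the shortest ribosomal protein, had 6 factors and 9 peaks. Rpl13a, known also for silencing inflammatory mRNAs outside the ribosome, and Rpl36 each had Cebpa, Cebpb, Fli1, Lmo2, Runx1 and Spi1, with 8 peaks. These 4 genes shared Cebpa, Cebpb, Fli1 and Spi1.

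**Figure D2:**
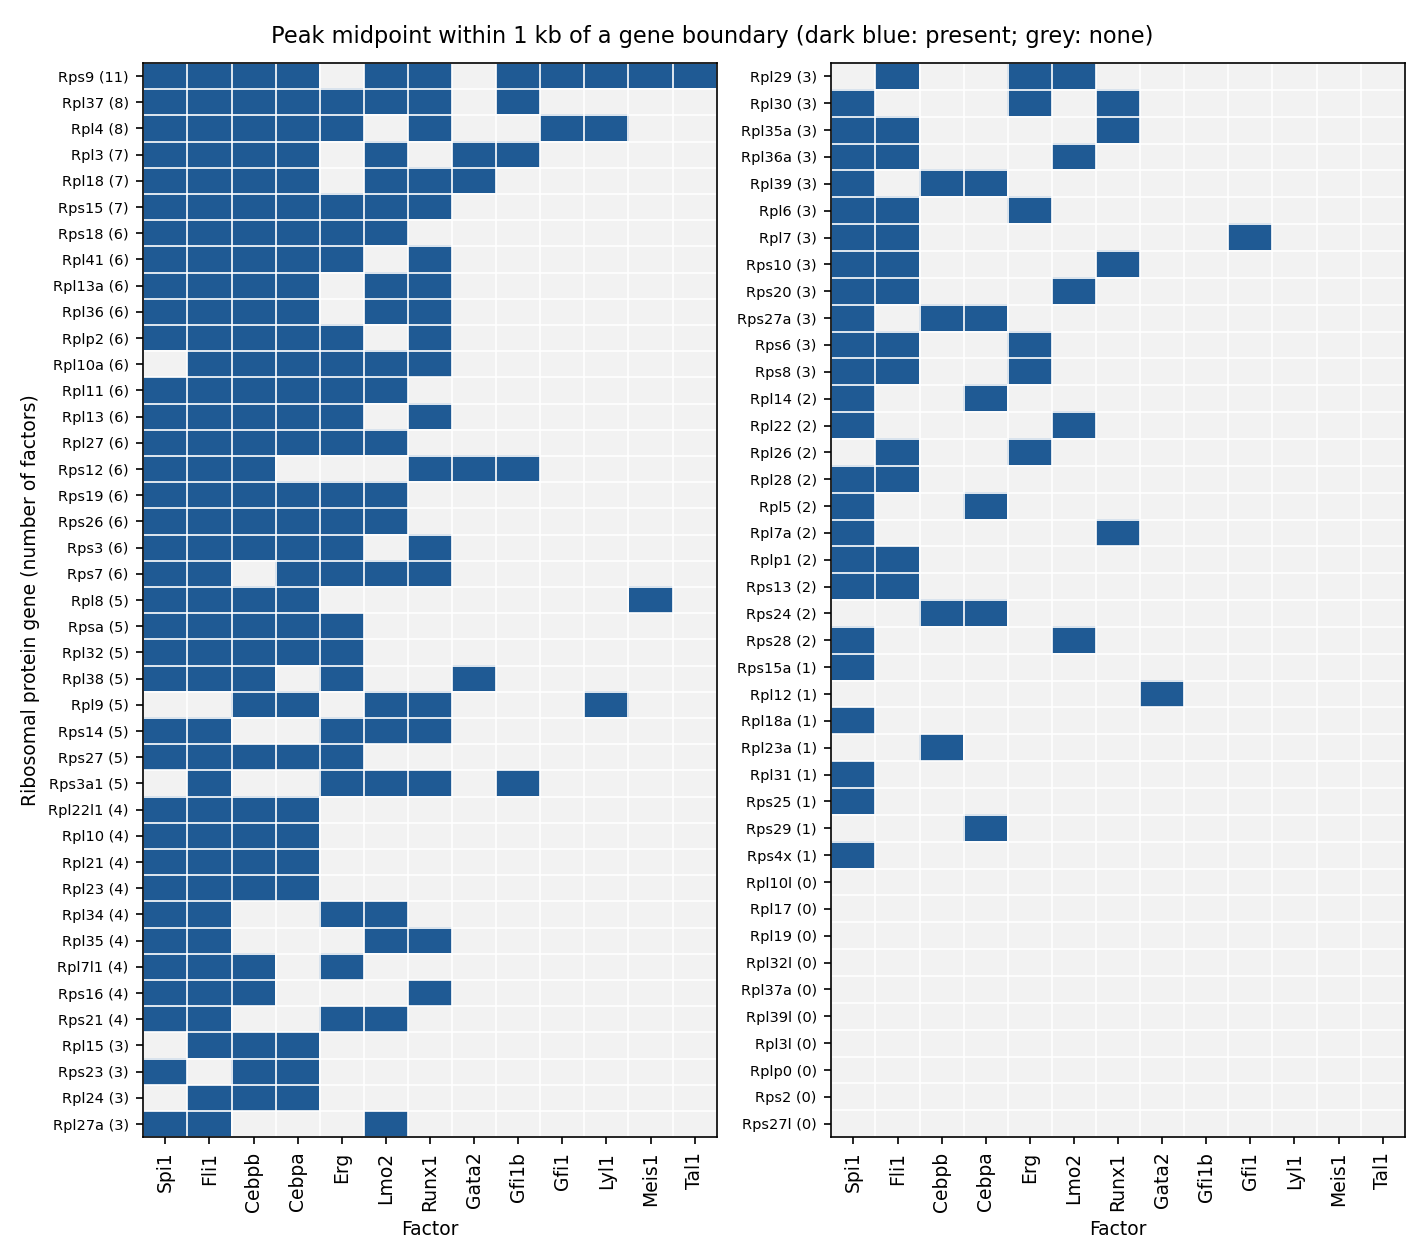
Presence of each of the 13 factors (columns) within 1 kb of either end of each of 81 of the 84 ribosomal protein genes (rows, ordered by number of factors, given in brackets). Dark blue cells hold a peak: Spi1 and Fli1 fill 60 and 52 of these rows, Rps9 has 11 factors, and 10 genes have none.

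Of the 84 genes, 10 had no factor within 1 kb of an end. Rpl19, Rps2 and Rps27l were among them because their annotated interval begins far upstream of the RefSeq start, by 4707, 1942 and 1462 bp. At those starts, Rps2, a small-subunit protein, had Fli1 (-69 bp), Runx1 (-17 bp) and Spi1 (38 bp). Rpl19, a large-subunit protein, had Fli1 (-44 bp and 807 bp) and Runx1 (228 bp), and Rps27l, a copy of Rps27 induced by p53, had Fli1 (7 bp) and Erg (16 bp). With these 3, 77 of the 84 genes had a peak at an end or a start.

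The 7 without were Rpl3l, Rpl10l, Rpl17, Rpl32l, Rpl37a, Rpl39l and Rplp0. Rpl3l (heart and skeletal muscle), Rpl10l and Rpl39l (both testis) are copies known for restricted expression. Rpl32l had its nearest peak 5553 bp away. Rplp0, which anchors the acidic stalk that recruits elongation factors, had its nearest peak 1470 bp away and 11 factors within 50 kb. Rpl17, a large-subunit protein, had its nearest at 1481 bp and also 11 factors within 50 kb. Rpl37a, likewise of the large subunit, had no peak of any factor within 50 kb, with the nearest at 52.1 kb, and Rpl39l was the other such gene, with the nearest at 103.0 kb.

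Spi1 and Fli1 were the most frequent factors in each subunit. Large-subunit genes had a mean of 3.53 ± 2.23 factors (SD, 47 genes) and small-subunit genes 3.97 ± 2.29 (31 genes), and the difference was not tested. Spi1 was near 34 of the 47 and 27 of the 31, Fli1 near 31 and 22, Erg near 15 and 15, and Cebpa and Cebpb near 23 and 14 each. Erg thus stood at 31.9% and 48.4%, and each C/EBP factor at 48.9% and 45.2%. Among the stalk proteins, Rplp2 had 6 factors (Cebpa, Cebpb, Erg, Fli1, Runx1 and Spi1), Rplp1 had Fli1 and Spi1, and Rplp0 had none. The 6 related copies had a mean of 1.33 factors: Rpl22l1, the counterpart of Rpl22, had Cebpa, Cebpb, Fli1 and Spi1, Rpl7l1 had Cebpb, Erg, Fli1 and Spi1, and 4 had none.

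All 13 genes of the Diamond-Blackfan list had a factor within 1 kb, with a mean of 3.54 ± 1.85 (SD, 13 genes), the same mean as all 84. Rps19, the gene most often mutated in that disease, Rpl11 and Rps26 each had Cebpa, Cebpb, Erg, Fli1, Lmo2 and Spi1. Rps7 also had 6, with Runx1 in place of Cebpb. Rpl11 and Rpl5, which together with the 5S ribosomal RNA restrain Mdm2 and so raise p53, differed, since Rpl5 had Cebpa and Spi1 only. Rpl35a and Rps10 had Fli1, Runx1 and Spi1, Rpl15 had Cebpa, Cebpb and Fli1, and Rpl26 had Erg and Fli1. Rps24 had Cebpa and Cebpb, Rps28 had Lmo2 and Spi1, and Rps29 had Cebpa. None of the 13 had Gata2, Gfi1, Gfi1b, Lyl1, Meis1 or Tal1, at least 1 of which stood near only 13 of the 84, and each of which was near 2.42% to 8.54% of all genes, so a count of 0 in 13 is near the background. Across them Fli1 and Spi1 were near 9 each, Cebpa near 8, Erg and Lmo2 near 6 each, Cebpb near 5 and Runx1 near 3.

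The factors sat on the starts. Of the 64 genes with a RefSeq start, 57 had a peak within 1 kb of it (89.1%, against 50.8% of 17274 protein-coding genes with a start), with a mean of 3.41 ± 2.20 factors against 1.74. Among the 53 longer than 2 kb, where the 2 ends can be told apart, 48 had a peak at the start and 9 at the far end. Their means were 3.45 factors at the start and 0.566 at the end, and over 15243 protein-coding genes of that kind the means were 1.91 and 0.357.

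Most peaks of Fli1 and Erg lay within 200 bp of the start. Fli1 midpoints had a median of -36 bp from the start (quartiles -73 and 6), and 41 of 44 lay within 200 bp (93.2%, where for all genes the share was 66.8%). Erg had a median of -27 bp (-86 and 16), with 23 of 25 within 200 bp (92.0%, against 69.9%). Spi1 had a median of -35 bp (-103 and 25), with 34 of 45 within 200 bp (75.6%, against 46.6%). Runx1 had a median of -48 bp (-118 and 18), with 18 of 22 within 200 bp (81.8%, against 66.3%). Lmo2 had a median of -54 bp and the narrowest quartiles of the frequent factors (-97 and -20), with 16 of 19 within 200 bp (84.2%, against 59.3%).

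C/EBP peaks had medians farther upstream, and did so over all genes too, where the medians were -65 bp for Cebpa and -66 bp for Cebpb beside -28 bp for Fli1. At the ribosomal protein genes Cebpa had a median of -99 bp (-202 and -14) and Cebpb of -121 bp (-391 and -38), and 19 of 27 (70.4%, against 49.7% over all genes) and 19 of 31 (61.3%, against 48.3%) lay within 200 bp. Tal1 and Meis1 had no peak within 1 kb of any of the 64 starts, where 3.0% and 2.11% of all starts had one. Zero of 64 allows a share of up to 5.6% (upper limit of the exact binomial interval), so no difference from that background was detectable.

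**Figure D3:**
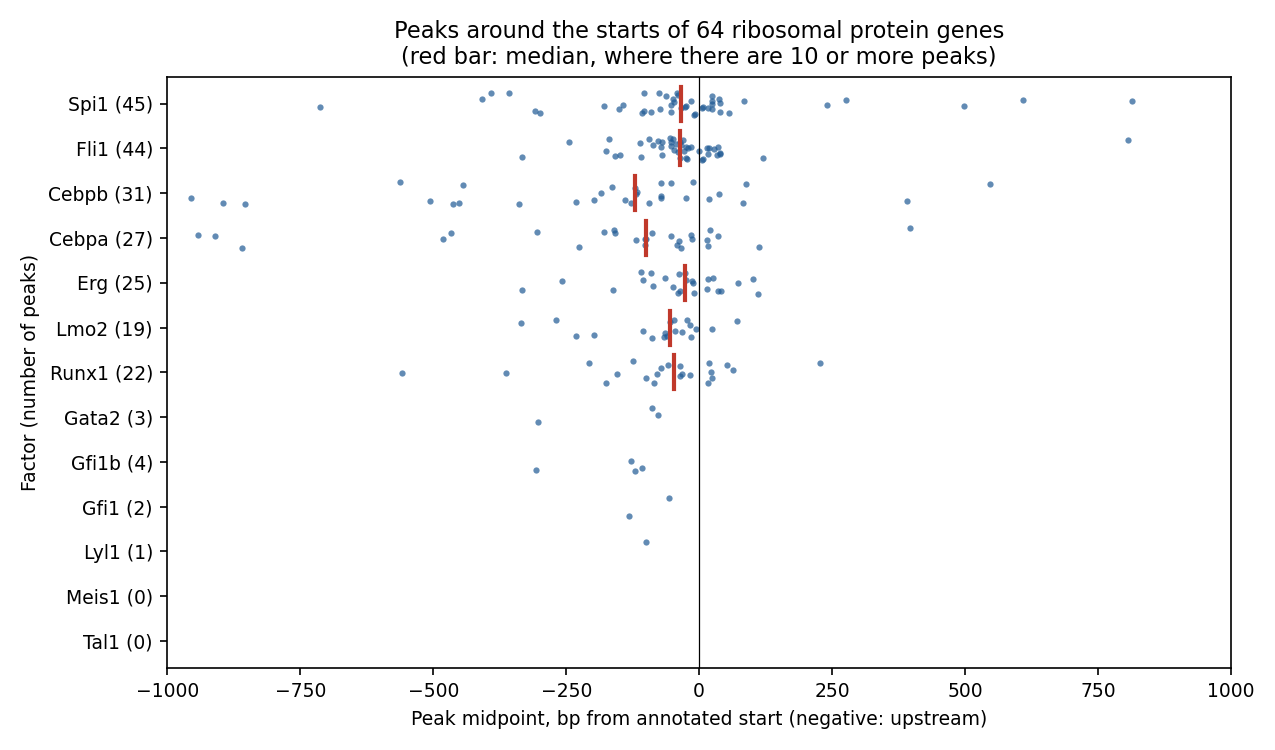
Midpoint of each peak in bp from the RefSeq start (horizontal axis, negative upstream) for each factor (vertical axis, number of peaks in brackets) at 64 ribosomal protein genes. Each point is a peak and red bars are medians for factors with 10 or more peaks: Fli1 is centred at -36 bp, while Cebpb is centred at -121 bp with a spread to about 1 kb.

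The letters of these promoters were counted over 300 bases, from 250 before to 50 after the start, on both strands. CCGGAAG (ETS) was in 25 of 64 promoters of ribosomal protein genes (39.1%, 27.1 to 52.1) and in 12.1% of all 17274 promoters. It was in 21 of the 43 with a Fli1 peak at the start (48.8%) and in 4 of the 21 without (19%), where over all genes the shares were 32.7% and 5.15%. The 25 genes held 30 copies, centred at a median of -56 bp, and in the 21 with a Fli1 peak the nearest copy was a median of 40 bp from the peak's midpoint, with 19 within 100 bp. Copies at Rps18 (-154 bp, Fli1 at -158 bp), Rps27l (12 bp, Fli1 at 7 bp), Rpl19 (-36 bp, Fli1 at -44 bp) and Rpl26 (7 bp, Fli1 at -1 bp) were the nearest. These distances were not computed over all genes. The letters were sought only in these 300 bases, where most Fli1 peaks lie, so short distances are in part set by the search. A match is a description of letters and not a measured site.

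The other letters searched were above the background in some cases and below it in others. GAGGAAG, the form of the ETS letters that Spi1 prefers, was in 12 of 64 (18.8%, against 13.1% of all promoters), and TTGCNNAA (C/EBP) in 5 (7.81%, against 10.3%). TGTGGT (Runx) was in 6 (9.38%, against 14.8%), TGACAG (Meis) in 9 (14.1%, against 18.3%) and AAATCA (Gfi) in 7 (10.9%, against 12.9%). In each of these the exact interval took in the background. CANNTG, the E-box, was in 32 (50%, interval 37.2 to 62.8) against 68.8%, and its special case CACGTG, which Myc prefers, in 5 (7.81%) against 8.01%. GATAAG, preferred by Gata factors, was in 9 (14.1%, 6.64 to 25) against 6.92%, although only 3 of the 64 starts had a Gata2 peak and 1 of those 3 held the letters. AAGATGGC, the letters of YY1, a factor not assayed here, was in 6 (9.38%, 3.52 to 19.3) against 3.23%, with the whole interval above it. The ETS letters CCGGAAG and GAGGAAG differ at their first bases, so no copy counts as both. Median GC content was 57.0% in the ribosomal promoters and 56.3% in all.

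The first bases of the RNA were read at the same starts. The RefSeq start was a C in 22 of the 64 (34.4%, against 13.9% of all), and a C followed by at least 4 pyrimidines, as in a terminal oligopyrimidine tract, in 13 (20.3%, against 2.19%). Those 13 were Rpl14, Rpl15, Rpl28, Rpl32l, Rpl35, Rpl38, Rplp2, Rps6, Rps10, Rps15a, Rps18, Rps21 and Rps27. The count depends on the exact base that RefSeq gives as the start.

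Other genes of protein synthesis and energy supply had mean numbers of factors above the 1.87 of all protein-coding genes as well. Within 1 kb, 50 translation factor genes had a mean of 3.90 ± 2.26 factors, 78 mitochondrial ribosomal protein genes 3.44 ± 2.08, 39 proteasome genes 2.97 ± 2.18 and 78 respiratory chain genes 2.86 ± 2.22 (SD over genes). The differences between these means were not tested. At least 1 factor was near 45 of the 50 translation factor genes and 70 of the 78 mitochondrial ribosomal protein genes (89.7%). The same held for 70 of the 78 respiratory chain genes (89.7%) and 34 of the 39 proteasome genes (87.2%). The cytosolic ribosomal protein genes stood at 88.1%, so a share of this size was not particular to them. Fli1 was near 74.0% of translation factor genes, 57.7% of mitochondrial ribosomal, 48.7% of proteasome and 52.6% of respiratory chain genes, beside 65.5% of the cytosolic ribosomal genes. Spi1 was near 66.0%, 59.0%, 59.0% and 46.2%, beside 75%, the highest of the 5 groups. Runx1 was near 50%, 38.5%, 33.3% and 26.9%, beside 27.4%.

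**Figure D4:**
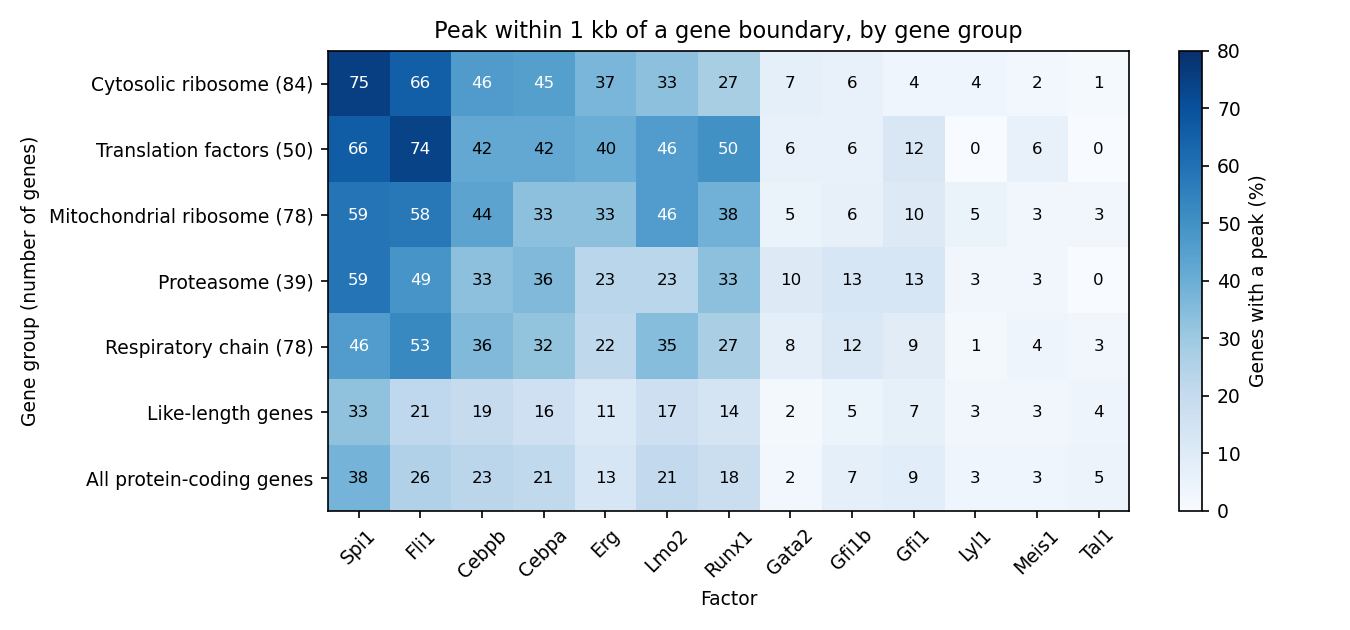
Percentage of genes (number in each cell, colour scale from 0 to 80%) with a peak of each factor (columns) within 1 kb of an end, in 5 gene groups (rows, number of genes in brackets), in genes of like length and in all protein-coding genes. Spi1 and Fli1 are the darkest columns in the 5 groups, and Runx1 is at 50% in translation factor genes beside 27.4% in cytosolic ribosomal protein genes.

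Within 50 kb of the gene, the background was higher, and the ratios to it for Fli1 and Erg were lower. A peak of some factor was within 50 kb of 82 of the 84 genes (97.6%), beside 88.0% of all genes and 80.9% of those of like length, and the mean was 9.04 ± 2.80 factors (SD over 84 genes) beside 7.49 and 6.45. Rps3 and Rps16, both of the small subunit, had all 13 factors, while Rpl37a and Rpl39l had none. The ratio to genes of like length, which was 3.07 for Fli1 and 3.35 for Erg at the ends of the genes, was 1.48 and 1.64 here. With a peak near 61.8% and 45.8% of genes of like length, no share could reach the earlier ratios. The fall in ratio therefore does not compare the windows.

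The ETS and C/EBP factors were within 50 kb of most of the genes. Spi1 was there at 80 (95.2%, beside 84.7% of all genes and 76.4% of those of like length), Fli1 at 77 (91.7%, beside 69.7% and 61.8%) and Erg at 63 (75%, beside 51.7% and 45.8%). Cebpa was there at 78 (92.9%, beside 74.3% and 64.7%) and Cebpb at 77 (91.7%, beside 75.5% and 65.6%). Lmo2 was there at 76 (90.5%, beside 69.0% and 60.8%) and Runx1 at 66 (78.6%, beside 56.8% and 50.3%).

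The factors that were rare at the gene ends were more frequent at this distance, as they were over all genes. Gfi1 was within 50 kb of 55 genes (65.5%, 54.3 to 75.5, beside 49.1% of all genes and 42.4% of those of like length), Tal1 of 51 (60.7%, 49.5 to 71.2, beside 56.8% and 47.4%) and Gfi1b of 46 (54.8%, 43.5 to 65.7, beside 46.5% and 39.5%). Lyl1 was there at 37 (44.0%, 33.2 to 55.3, beside 40.5% and 32.0%) and Gata2 at 22 (26.2%, 17.2 to 36.9, beside 23.2% and 19.5%). Meis1 was there at 31 (36.9%, 26.6 to 48.1), below the 50.6% of all genes and near the 39.3% of those of like length. The share with Tal1 was 1.19% at the ends and 60.7% within 50 kb, and over all genes it was 4.68% and 56.8%.

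Several of the genes had regions of many factors at a distance, and other genes often stood nearer to these. Rpl11 and Rpl22l1 alone had a region of 11 factors, while the 3 others described are among 12 genes whose richest region held 10. Rpl11 had a region of 11 factors, without Gata2 and Meis1, at chr4:136030940-136031435, 18.2 kb from the gene and 9.54 kb from Eloa. Rpl22l1 had one with the same 11 factors at chr3:28841922-28842561, 34.8 kb away, and was itself the nearest protein-coding gene. Rpl23 had a region of 10 factors at chr11:97728282-97728730, 49.0 kb away and inside Pip4k2b. Rpl26 had one of 10 at chr11:68871686-68872186, 29.6 kb away and 10.2 kb from Rnf222. Rpl27a had one of 10 at chr7:109531737-109532258, 9.63 kb away and inside Denn2b, in which Spi1, the factor with the longest list, was absent along with Gata2 and Meis1. A region was assigned by distance and no contact with any gene was measured.

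Neighbouring genes bear on the counts. Of the 84 genes, 30 had an end of another protein-coding gene within 1 kb, so that a peak there can be counted with either, and 54 did not. Of those 54, 46 had a factor, with a mean of 3.39. Fli1 was near 36 of them (66.7%) and Spi1 near 41 (75.9%), beside 65.5% and 75% of all 84. Cebpa and Cebpb were near 22 each (40.7%, 27.6 to 55.0), Lmo2 near 17 (31.5%, 19.5 to 45.6) and Runx1 near 12 (22.2%, upper limit 35.6), lower shares than over the 84, and for Lmo2 and Runx1 the interval took in the share of all genes. That share includes genes with close neighbours, and no background limited to genes without them was computed. Of the 84 genes, 14 are on chromosome 7.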

How the data were processed

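The deposited files are peak lists, 1 per factor, which hold positions of peaks on mm10 in 3 columns and no other unit. The submitters' processing notes name the tools Bowtie2, bedtools and MACS2 and the builds mm10 and GRCm38. Tool versions and roles, the threshold for peaks and any use of IgG in calling were not given in the sources used here. Every peak is 400 bp wide, so depth is unknown.

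Genes came from a RefSeq table of GRCm38.p6 and starts and promoter letters from a RefSeq promoter table of that build, which matched 64 of the 84 genes. A peak was counted by its midpoint, within 1 kb of either gene boundary or within the gene and 50 kb either side. Genes of like length were all other protein-coding genes in the same of 20 length bins, weighted by the ribosomal protein genes in each. Intervals are exact (Clopper-Pearson, 95%, SciPy 1.17.1). Peaks that overlapped or directly adjoined were merged. The counting was tested on simulated data. No p-values were computed, and no paired analysis applied.

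The members and lists were chosen with earlier results of these data known. Genes named are the 10 with the most factors within 1 kb (ties by peaks, then alphabet), all with none, the related copies, the Diamond-Blackfan list and 5 genes whose 50 kb hold the richest regions (ties by the number of regions with 10 or more factors, then alphabet). Other genes named were picked after their values were seen. Some genes taken by the rule are counted but not named or drawn, and their own values are not reported here. Promoters of Rpl18 and Rpl19 lie inside annotated genes and are not printed. Alternatives changed the window, the peaks counted, the lists and genes used and the background.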

Additional observations from a re-analysis of the deposited data

How the results depend on the processing

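The number of ribosomal protein genes with a peak, 74 of 84 within 1 kb and 82 within 50 kb, stayed within 1.5 times as a share under all alternatives run (70 with 500 bp, 80 with 2 kb, 64 with only the upper 50% of each list's lines, 69 without Spi1). The mean number of factors per gene differed in some of them. Within 1 kb, where it was 3.54, it was 3.07 with a window of 500 bp, 3.90 with 2 kb, 1.94 with the first 50% of the lines and 2.79 without the Spi1 list. Within 50 kb, where it was 9.04, it was 5.44 with 10 kb, 10.5 with 100 kb, 6.67 with the first 50% of the lines and 8.08 without Spi1. With gene density added to length, the background of like genes was 1.59 in place of 1.54 within 1 kb and 6.63 in place of 6.45 within 50 kb. With the first 50% of the lines, whose order is not explained, Fli1 was near 42.9% of the genes beside 11% of those of like length, and Spi1 near 51.2% beside 18.5%. Restricting the genes to those without close neighbours, or to those with a RefSeq start, was chosen after seeing the data and gave means of 3.39 and 3.58. No paired analysis was possible because each factor has 1 library. With 1 list per factor and no read counts, differences between antibodies, depth and calling cannot be told apart from differences in binding.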

Other observations

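Ribosomal proteins have left many processed copies in the mouse genome that make no protein. Of 305 ribosomal protein pseudogenes of any kind in the RefSeq table, 33 (10.8%) had a peak of any factor within 1 kb of an end, with a mean of 0.236 factors, and of 10203 other pseudogenes 7.94% did, with a mean of 0.17. The functional genes, at 88.1% and a mean of 3.54, were far from both, but the pseudogenes were not matched to them in length.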
